A study of Arabidopsis thaliana with 18 samples.

Results

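QQS (AT3G30720) and 5 further loci were followed through 18 libraries of Arabidopsis seedlings. QQS, AT2G04885, AT3G05170, AT3G02620 and AT3G55890 were chosen because their counts were already seen to separate the atm1-1 mutant from Col-0, and NF-YC4 (AT5G63470) was added as the protein partner of QQS. They are 6 of the 32832 genes of the count table, and all 6 were among the 19679 genes with enough counts to test. The libraries came from whole seedlings, 5 days old, in 6 groups of 3: atm1-1 with 15 mM glucose, with 15 mM sucrose or with neither sugar (mock), and Col-0 under the same 3 conditions. Col-0 is the wild type, of the same Columbia background, and atm1-1 carries the T-DNA insertion SAIL_405_B08 in ATM1 (AT3G19960), which encodes a class VIII myosin. It is 1 insertion allele, so the allele and any other difference between the seed stocks cannot be told apart in these libraries. Seedlings of both genotypes grew on the same agar medium in cycles of light and dark.

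QQS encodes a very small protein found in Arabidopsis thaliana and in no other species, which is why it is called an orphan gene. Lowering QQS is known to raise leaf starch, raising it is known to shift carbon from carbohydrate to protein, and its transcript level is known to vary between natural accessions together with DNA methylation at its 5′ end. The QQS protein binds NF-YC4, a subunit of the nuclear factor Y (NF-Y) complex, which forms from an NF-YA, an NF-YB and an NF-YC subunit and recognises the CCAAT box. Of the other loci, AT3G02620 belongs to the stearoyl-acyl-carrier-protein desaturases, plastid enzymes that put a double bond into a growing fatty acid. AT3G05170 belongs to a family named after phosphoglycerate mutase, a glycolytic enzyme, AT3G55890 to the Yippee family of putative zinc-binding proteins, and AT2G04885 is annotated as a long non-coding RNA.

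The sequences that define the best known of these loci are shown first, taken from RefSeq's annotation of TAIR10.1. The count table itself gives locus names and no coordinates. QQS lies at chr3:12349047-12349933 on the plus strand, and its coding sequence, split over 2 coding exons at chr3:12349461-12349726, has 180 bases and 59 codons before the stop. It is printed to show how small the gene product is, with the start and stop codons in capitals.
QQS coding sequence: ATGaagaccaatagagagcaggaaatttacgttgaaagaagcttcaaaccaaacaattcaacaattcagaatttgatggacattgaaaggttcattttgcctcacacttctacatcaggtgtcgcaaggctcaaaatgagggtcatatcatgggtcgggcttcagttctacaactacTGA
The promoters of QQS and AT2G04885, the loci chosen for low counts in atm1-1, are printed because the NF-Y complex that contains NF-YC4 recognises CCAAT. Each covers 250 bases before to 50 bases after the annotated start, at chr3:12348797-12349096 for QQS and at chr2:1926765-1927064 for AT2G04885, both on the plus strand, with each CCAAT or its reverse complement ATTGG in capitals.
QQS promoter: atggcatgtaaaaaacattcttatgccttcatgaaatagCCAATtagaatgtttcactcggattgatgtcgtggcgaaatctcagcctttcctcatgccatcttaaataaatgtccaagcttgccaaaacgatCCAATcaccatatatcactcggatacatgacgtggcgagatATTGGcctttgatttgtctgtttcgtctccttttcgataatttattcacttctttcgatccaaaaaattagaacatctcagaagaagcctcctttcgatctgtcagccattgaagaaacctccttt
AT2G04885 promoter: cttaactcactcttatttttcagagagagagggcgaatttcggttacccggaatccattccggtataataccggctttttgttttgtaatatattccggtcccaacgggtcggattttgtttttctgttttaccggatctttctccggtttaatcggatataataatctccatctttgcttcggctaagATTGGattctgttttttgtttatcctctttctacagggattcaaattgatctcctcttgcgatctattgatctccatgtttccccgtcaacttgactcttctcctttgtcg
The QQS window holds 3 matches, starting at -211, -117 and -76 from the annotated start, and the AT2G04885 window holds 1, at -61. AT3G05170 has 1 match, NF-YC4 has 2, and AT3G02620 and AT3G55890 have 0 in windows of the same length. Among 32545 promoters of this length, 50.979% hold at least 1 match and 4.501% hold 3 or more, so that single matches are common. A match is a description of the letters and not a measured binding site.

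Reads on genes ranged from 9450790 to 20256309 per library. Levels are given as CPM, the counts of a gene relative to the library total after edgeR's TMM scaling, and differences as log2 fold changes with their standard error (SE). The q-values are Benjamini-Hochberg adjusted p-values of edgeR's quasi-likelihood test over all 19679 genes, and a gene is called at q ≤ 0.1, the study's threshold. ATM1 itself had 311 to 623 counts in every library, with no sign of the genotype (log2 fold change -0.08, SE 0.109, edgeR q = 0.86, averaged over the treatments). In the paper, RT-PCR detected ATM1 RNA ahead of the insertion in atm1-1 but no full-length transcript. The libraries read transcript 3′ ends and the table holds no read positions, so ATM1 could not be used to check the labels. Nor do these counts show an intact ATM1 transcript in atm1-1. The 3 marker genes of green tissue summed to 12400 to 20600 CPM in atm1-1 and 15500 to 19600 CPM in Col-0, and 5 root markers to 37 to 54.7 CPM in atm1-1 and 37.5 to 58.6 CPM in Col-0. With sucrose edgeR called 2 of the 3 green markers lower in atm1-1 (RBCS1A and CA1, median of the 3 -0.47) and 1 of 3 in Col-0 (CA1, median -0.16), and with glucose 0 of 3 in either genotype. Their sums were 12400 to 16800 CPM with sucrose and 16600 to 20600 CPM in mock within atm1-1, and 16500 to 17300 CPM with sucrose and 18400 to 19600 CPM in mock within Col-0. The seed markers OLEO1 and CRA1 were called higher with both sugars in both genotypes, summing to 24.6 to 35.4 CPM with glucose, 28.4 to 97.7 CPM with sucrose and 0.236 to 0.817 CPM in mock within atm1-1. In Col-0 they summed to 12.2 to 78.8 CPM with glucose, 67.6 to 105 CPM with sucrose and 0.504 to 1.96 CPM in mock, and the flower markers AP3 and PI to 0 to 2.31 CPM in atm1-1 and 0.409 to 2.6 CPM in Col-0. The part of tissue composition in the results was not tested, and in whole seedlings fewer cells of a type and less RNA per cell cannot be told apart. The library atm1-1 glucose replicate 2 stood apart. Its log2 CPM values departed from the mean of the other replicates with an SD of 0.885. Replicate 1 of the same group was next at 0.727, against 0.393 to 0.582 in the remaining libraries.

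The 5 chosen loci differed between the genotypes by definition, and the following values are a description without a test. QQS was at 0.176 to 2.16 CPM in the 9 atm1-1 libraries (median 1.09) and at 20.8 to 58.7 CPM in the 9 Col-0 libraries (median 37.8). AT2G04885 was at 0 to 0.641 CPM in atm1-1 (median 0.155) and at 5.34 to 12.8 CPM in Col-0 (median 8.56). These 2 transcripts were therefore nearly missing from atm1-1, with 158 counts of QQS over the 9 atm1-1 libraries against 4600 over the 9 Col-0 libraries, and 29 counts of AT2G04885 in atm1-1 against 1017 in Col-0. The other 3 loci went the opposite way. AT3G05170 was at 5.59 to 15.7 CPM in atm1-1 (median 11.1) and at 0.267 to 1.71 CPM in Col-0 (median 0.75), AT3G02620 at 4.72 to 23.8 CPM in atm1-1 (median 10.8) and at 1.07 to 2.94 CPM in Col-0 (median 1.87), and AT3G55890 at 2.83 to 4.96 CPM in atm1-1 (median 4.08) and at 0.372 to 2.46 CPM in Col-0 (median 1.29). These 5 loci were chosen as seen to differ most between the genotypes, so the gaps between their ranges follow from the choice. How many of all genes have such gaps was not counted.

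Averaged over the 3 treatments, the log2 fold changes of atm1-1 against Col-0 were -4.94 (SE 0.271) for QQS, -5.19 (SE 0.373) for AT2G04885, 3.69 (SE 0.250) for AT3G05170, 2.33 (SE 0.191) for AT3G02620 and 1.72 (SE 0.243) for AT3G55890. Their ranks by p-value, 1, 3, 2, 4 and 13 among all genes tested, follow from the choice of these loci on this contrast. They are not evidence of a difference. The background of this comparison was 174 called genes, 0.884% of those tested, and within the single treatments it was 31 genes (0.158%) in mock, 10 (0.0508%) with glucose and 9 (0.0457%) with sucrose. Nothing is read from the members against these shares, since the same contrast picked them. QQS differed by -5.21 with glucose, -4.43 with sucrose and -5.19 in mock, and AT3G05170 by 3.92 with glucose, 3.88 with sucrose and 3.28 in mock. AT3G02620 had the widest spread of these differences, 3.06 with glucose, 2.30 with sucrose and 1.64 in mock. Some of these values moved when 1 library was left out. Without atm1-1 sucrose replicate 1, AT2G04885 was at -6.80 on average and at -9.80 with sucrose, the second a fit to libraries at 0 that depends on the prior count. QQS in mock was at -6.58 without atm1-1 mock replicate 1 and with glucose at -5.87 without atm1-1 glucose replicate 1, AT3G05170 with glucose at 4.89 without Col-0 glucose replicate 2, and AT3G55890 in mock at 2.67 without Col-0 mock replicate 2.

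**Figure D1:**
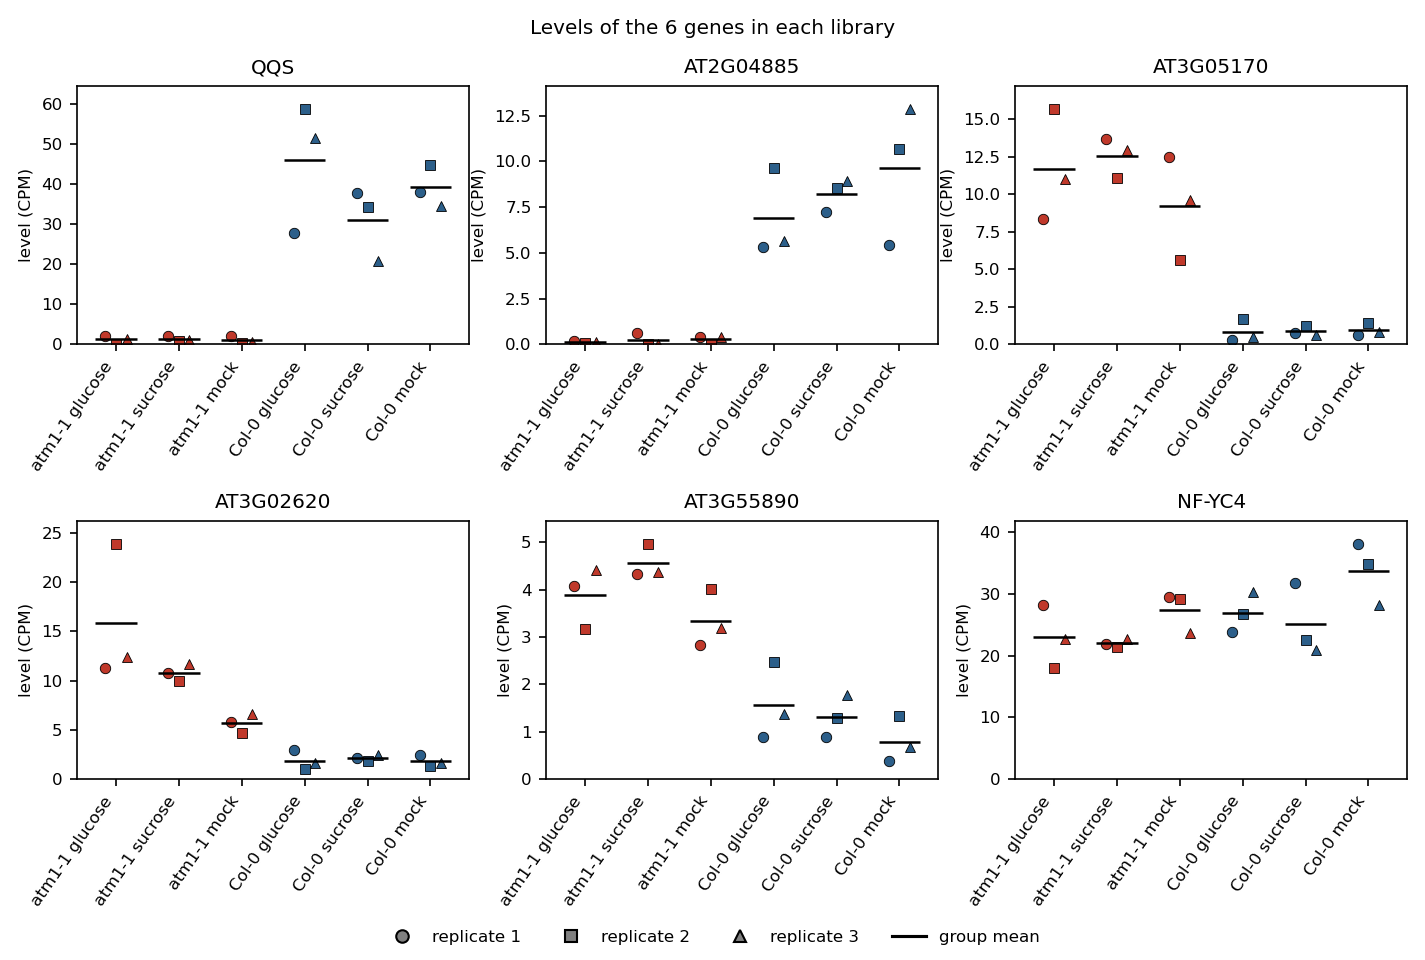
Level in CPM of the 6 genes in each of the 18 libraries (1 panel a gene, linear axes from 0, symbols for replicates, line for the group mean). QQS and AT2G04885 lie near 0 in all 9 atm1-1 libraries, AT3G05170, AT3G02620 and AT3G55890 lie higher in atm1-1 than in Col-0, and NF-YC4 overlaps between the genotypes.

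The sugar response within each genotype was then tested for every locus. The same 18 libraries also entered the genotype contrast that picked 5 of the loci, so these tests are not fully separate from the choice. AT3G02620 was the only called locus of the 6. It was higher in atm1-1 with glucose and with sucrose than in atm1-1 mock, and none of the 6 was called in Col-0. The background for 1 call among 6 loci was 575 genes (2.92%) with glucose and 1030 genes (5.23%) with sucrose in atm1-1. In Col-0, with 0 of 6 called, it was 109 genes (0.554%) with glucose and 421 genes (2.14%) with sucrose. AT2G04885 entered the test only through its Col-0 counts and had 29 counts over the 9 atm1-1 libraries. It thus had little room to be called in atm1-1, and the 6 are not a like set beside the share of all genes. Before adjustment, edgeR put 0 of the 6 below 0.05 with glucose in Col-0 and 1, NF-YC4, with sucrose, and DESeq2 and limma called 0 of them in either.

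QQS, the regulator of starch and protein content, was low in atm1-1 under every treatment. It was at 2.16, 0.176 and 1.32 CPM in atm1-1 with glucose (26, 2 and 17 counts), at 2.14, 0.901 and 1.09 CPM with sucrose (40, 14 and 12 counts), and at 2.13, 0.236 and 0.572 CPM in mock (37, 3 and 7 counts). The 3 conditions overlapped, and in each of them replicate 1 was the highest library. The log2 fold change was 0.21 with glucose (95% interval -1.04 to 1.45, edgeR q = 0.919) and 0.41 with sucrose (95% interval -0.76 to 1.59, edgeR q = 0.814). These intervals leave room for a change of more than 2-fold in either direction for glucose, so a response of QQS in atm1-1 was not detectable at this depth rather than shown to be absent.

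In Col-0, where QQS was abundant, its level was 27.8, 58.7 and 51.5 CPM with glucose, 37.8, 34.2 and 20.8 CPM with sucrose, and 38.0, 44.9 and 34.7 CPM in mock. Glucose replicate 1 lay below all mock libraries and glucose replicates 2 and 3 above all of them, while sucrose overlapped mock with its lowest library at 20.8 CPM. The log2 fold change was 0.23 with glucose (95% interval -0.50 to 0.96, edgeR q = 0.991) and -0.34 with sucrose (95% interval -1.07 to 0.38, edgeR q = 0.73). Sucrose and glucose set directly against each other gave -0.57 in Col-0 (SE 0.354, edgeR q = 0.819) and 0.21 in atm1-1 (SE 0.573, edgeR q = 0.992). The response of atm1-1 minus that of Col-0 was -0.02 for glucose (95% interval -1.56 to 1.51) and 0.76 for sucrose (95% interval -0.62 to 2.14), both with edgeR q = 1. Neither sugar changed the genotype difference of QQS past the threshold.

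The remaining QQS of each atm1-1 library, as a percentage of the Col-0 mean under the same treatment, was 4.71, 0.383 and 2.86% with glucose, 6.90, 2.91 and 3.53% with sucrose and 5.44, 0.603 and 1.46% in mock. Within the glucose group the highest and the lowest library thus differed by a factor that counts of 26 and 2 define only roughly. For AT2G04885 the percentages were 2.42, 1.28 and 2.25% with glucose, 7.78, 0 and 0% with sucrose and 4.18, 0 and 4.24% in mock. Replicate 1 was the highest for AT2G04885 with glucose and sucrose, and in mock it lay just below replicate 3. The labels tie replicate 1 of the different treatments to no shared harvest, and over all genes same-numbered libraries did not deviate together.

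**Figure D2:**
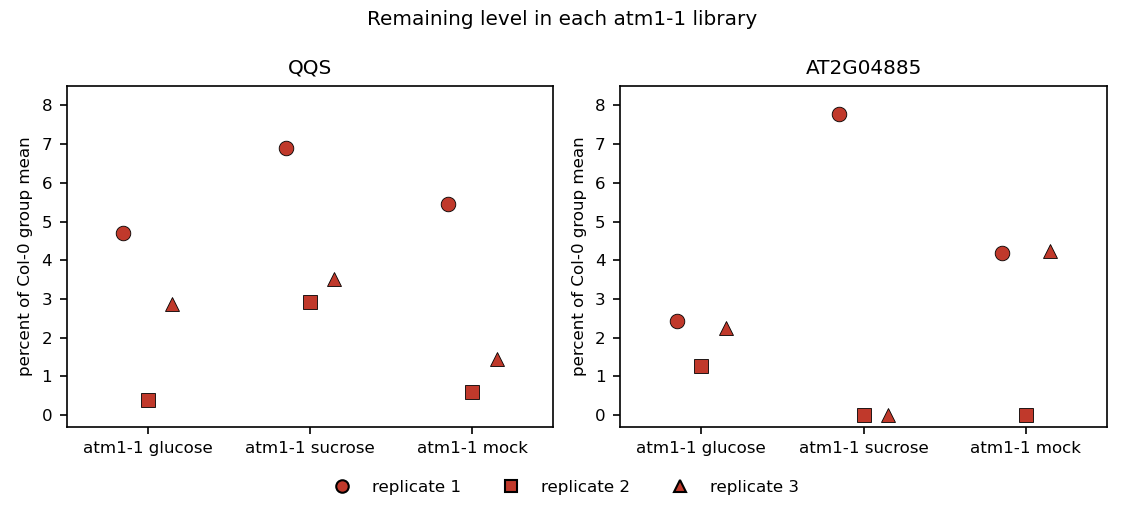
QQS and AT2G04885 in each atm1-1 library as a percentage of the Col-0 mean under the same treatment (linear axis, symbols for replicates, 3 libraries a treatment). QQS in replicate 1 is the highest under every treatment, between 4.71 and 6.90%, and no library exceeds 7.78% for either transcript.

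AT2G04885, the long non-coding RNA, gave 2, 1 and 2 counts in atm1-1 with glucose, 12, 0 and 0 counts with sucrose and 7, 0 and 5 counts in mock. It entered the test only through its counts in Col-0, where it was at 5.34, 9.63 and 5.67 CPM with glucose, 7.22, 8.56 and 8.93 CPM with sucrose, and 5.43, 10.7 and 12.8 CPM in mock. All 3 conditions overlapped within both genotypes. The log2 fold changes in atm1-1 were -0.98 with glucose (95% interval -3.09 to 1.12, edgeR q = 0.717) and -0.14 with sucrose (95% interval -1.93 to 1.65, edgeR q = 0.963), and with libraries at 0 these fitted values depend on the prior count. In Col-0 they were -0.49 with glucose (95% interval -1.41 to 0.42, edgeR q = 0.968) and -0.22 with sucrose (95% interval -1.12 to 0.67, edgeR q = 0.878). The atm1-1 intervals are wide enough that no statement on a sugar response of this RNA in the mutant can be made at this depth.

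AT3G05170, of the phosphoglycerate mutase family, showed the reverse distribution of depth, with 3 to 18 counts in each Col-0 library. In atm1-1 it was at 8.32, 15.7 and 11 CPM with glucose, 13.7, 11.1 and 12.9 CPM with sucrose, and 12.5, 5.59 and 9.65 CPM in mock. The sucrose libraries lay close together while mock spanned from below to above the lowest sucrose library, so the groups overlapped. The log2 fold changes in atm1-1 were 0.33 with glucose (95% interval -0.39 to 1.04, edgeR q = 0.721) and 0.43 with sucrose (95% interval -0.27 to 1.14, edgeR q = 0.626). In Col-0 the levels were 0.267, 1.71 and 0.478 CPM with glucose, 0.750, 1.22 and 0.635 CPM with sucrose and 0.595, 1.41 and 0.839 CPM in mock, with log2 fold changes of -0.31 (SE 0.538, edgeR q = 0.993) and -0.16 (SE 0.500, edgeR q = 0.931). Replicate 2 was the highest Col-0 library in each condition.

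AT3G02620, the desaturase family gene, was the locus that moved. In atm1-1 it was at 11.3, 23.8 and 12.4 CPM with glucose, 10.8, 9.98 and 11.6 CPM with sucrose, and 5.82, 4.72 and 6.62 CPM in mock. Every sugar library of atm1-1 lay above every mock library, though the share of all genes that do so was not counted. Glucose replicate 2, the library that stood apart over all genes, was the highest by far. The log2 fold change with glucose was 1.47 (SE 0.3, 95% interval 0.85 to 2.08, edgeR q = 0.00686). It stayed called when any of the 6 libraries was left out, at 1.06 to 1.66 with edgeR q of 0.00199 to 0.0609, including without glucose replicate 2. With sucrose it was 0.91 (SE 0.299, 95% interval 0.30 to 1.53) at an edgeR q of 0.1, which lies at the threshold. That call was lost without any 1 of the 6 libraries (0.80 to 1.03, edgeR q of 0.152 to 0.3) and so rests on all of them.

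In Col-0 AT3G02620 was at 2.94, 1.07 and 1.64 CPM with glucose, 2.18, 1.87 and 2.45 CPM with sucrose, and 2.46, 1.33 and 1.68 CPM in mock. The 3 conditions overlapped, with the lowest and the highest library both in the glucose group. The log2 fold change was 0.05 with glucose (95% interval -0.71 to 0.81, edgeR q = 0.999) and 0.25 with sucrose (95% interval -0.47 to 0.98, edgeR q = 0.814). The response of atm1-1 minus that of Col-0, tested directly, was 1.42 for glucose (SE 0.476, 95% interval 0.44 to 2.39, edgeR q = 1) and 0.66 for sucrose (SE 0.464, edgeR q = 1). The genotypes were thus not shown to differ in the response of this gene once all genes were accounted for. The background of both interaction tests was 0 called genes (0%), with 750 genes at an unadjusted p under 0.05 for glucose and 558 for sucrose by edgeR, while DESeq2 called 8 and 5 genes but none of the 6 loci. Sucrose set against glucose in atm1-1 gave -0.55 for AT3G02620 (SE 0.290, 95% interval -1.15 to 0.04, edgeR q = 0.981).

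AT3G55890, the Yippee family gene, was at 4.08, 3.17 and 4.42 CPM in atm1-1 with glucose, 4.33, 4.96 and 4.37 CPM with sucrose, and 2.83, 4.02 and 3.19 CPM in mock. All sucrose libraries lay above all mock libraries, whereas glucose overlapped mock. How many of all genes separate in this way was not counted, so no response is read from it. Its log2 fold changes in atm1-1 were 0.22 with glucose (95% interval -0.58 to 1.02, edgeR q = 0.85) and 0.45 with sucrose (95% interval -0.34 to 1.24, edgeR q = 0.663). In Col-0 it had only 5 to 39 counts a library, at 0.890, 2.46 and 1.37 CPM with glucose, 0.886, 1.29 and 1.77 CPM with sucrose and 0.372, 1.33 and 0.671 CPM in mock. The Col-0 groups overlapped, and the log2 fold changes were 0.96 with glucose (95% interval -0.002 to 1.92, edgeR q = 0.827) and 0.75 with sucrose (95% interval -0.19 to 1.69, edgeR q = 0.503). The 4 estimates had the same sign, but each pair within a genotype shares its mock libraries.

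**Figure D3:**
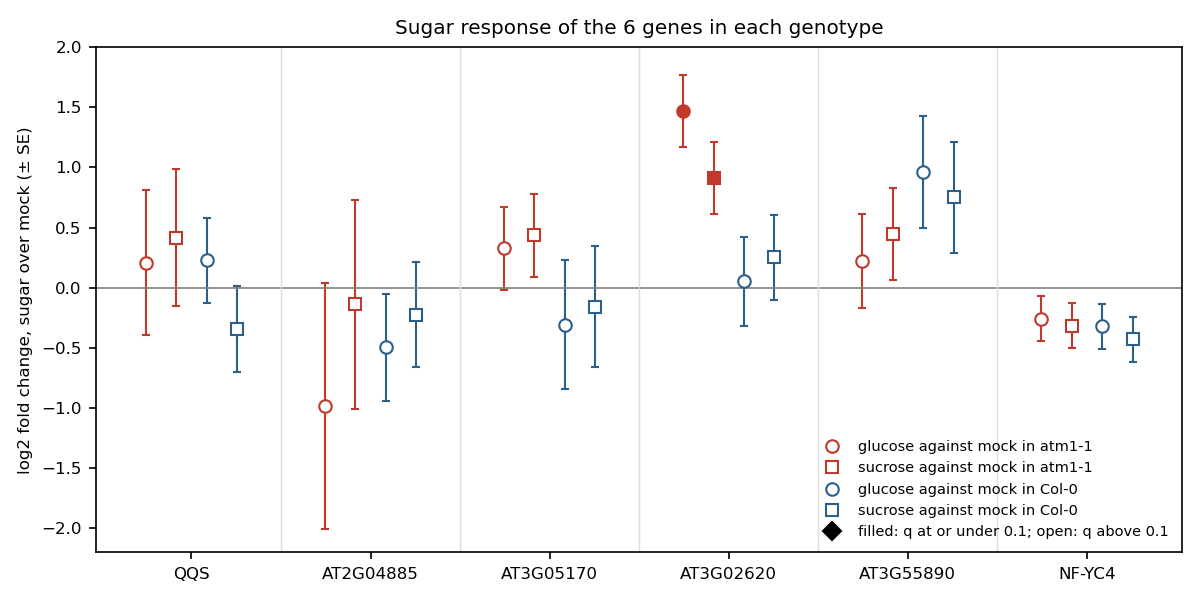
Log2 fold change of each sugar over mock (± SE) for the 6 genes within atm1-1 and Col-0, each estimate from 3 against 3 libraries. The filled symbols of AT3G02620 in atm1-1, at 1.47 with glucose and 0.91 with sucrose, are the estimates at q ≤ 0.1, and all open symbols have q above 0.1.

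NF-YC4, the partner of QQS, was not chosen on its values and can be tested between the genotypes. It was at 28.2, 17.9 and 22.6 CPM with glucose, 21.9, 21.4 and 22.7 CPM with sucrose, and 29.5, 29.2 and 23.6 CPM in mock within atm1-1. In Col-0 it was at 23.8, 26.7 and 30.2 CPM with glucose, 31.8, 22.6 and 20.9 CPM with sucrose, and 38.0, 34.8 and 28.2 CPM in mock. The genotypes overlapped under every treatment. Averaged over the treatments, atm1-1 differed from Col-0 by -0.24 (SE 0.108, 95% interval -0.46 to -0.01, edgeR q = 0.433), which did not pass the threshold over all genes.

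The sugar estimates of NF-YC4 were all below 0. In atm1-1 they were -0.26 with glucose (95% interval -0.65 to 0.13, edgeR q = 0.569) and -0.32 with sucrose (95% interval -0.70 to 0.07, edgeR q = 0.462). In Col-0 they were -0.32 with glucose (95% interval -0.71 to 0.06, edgeR q = 0.92) and -0.43 with sucrose (95% interval -0.81 to -0.04, edgeR q = 0.313). No estimate passed the threshold. The intervals place any change of NF-YC4 within less than 2-fold in each of the 4 comparisons, a tighter limit than the counts of QQS or AT2G04885 in atm1-1 allow. The response of atm1-1 minus that of Col-0 was 0.06 for glucose (SE 0.266) and 0.11 for sucrose (SE 0.264), both with edgeR q = 1.

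Sucrose and glucose were also set against each other within each genotype. None of the 6 loci was called, with estimates of -0.55 to 0.84 in atm1-1 and -0.57 to 0.27 in Col-0. The background was 0 called genes (0%) in either genotype by edgeR, with 936 genes in atm1-1 and 1282 genes in Col-0 below 0.05 before adjustment. With DESeq2 there were 4 called genes in atm1-1 and 13 in Col-0, again none of the 6 loci.

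The other genes of the pathways were examined as lists, chosen with earlier results of these data known. Of all genes, 2.92% were called with glucose and 5.23% with sucrose in atm1-1, 0.554% and 2.14% in Col-0, and 0.884% between the genotypes. Beside these shares, 0 calls in a list this short says nothing particular about the list. NF-YC4 belongs to a family of 13 NF-YC subunits, of which 9 were tested and 0 called in any of the 4 sugar comparisons or between the genotypes. Their median log2 fold change between the genotypes was -0.10, against -0.01 over all genes. All 10 NF-YA subunits, which contact the CCAAT box, were tested and 0 were called. Of 13 NF-YB subunits 8 were tested, and NF-YB2 was lower with sucrose, at 53.4 ± 1.51 CPM against 76.3 ± 8.29 CPM in mock within atm1-1 (SD, n = 3 each), which is -0.51 on the log2 scale (SE 0.164, edgeR q = 0.0909). In Col-0 it was at 45.5 ± 4.91 CPM with sucrose and 69.2 ± 6.81 CPM in mock, a change of -0.61 (SE 0.165, edgeR q = 0.0715). NF-YB11 was higher in atm1-1 than in Col-0 by 0.45 (SE 0.117, edgeR q = 0.0878). The NF-YB2 call in atm1-1 was lost without any 1 of the 6 libraries (edgeR q of 0.116 to 0.306). The calls of NF-YB2 in Col-0 and of NF-YB11 were lost without some libraries, with edgeR q of up to 0.333 and 0.207.

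The 16 genes of starch synthesis, the pathway QQS was named for, were all tested and 0 were called in the 4 sugar comparisons or between the genotypes. Their median log2 fold changes were -0.14 with glucose and -0.13 with sucrose in atm1-1, -0.11 with glucose and -0.12 with sucrose in Col-0, and -0.06 between the genotypes. The medians over all genes lay between -0.01 and 0.01 in these comparisons. Of 18 genes of DNA methylation and demethylation, the process known to affect QQS, 17 were tested and 0 were called in the same comparisons, with a median of 0.04 between the genotypes. Of all genes, 0.884% were called between the genotypes and 0.554 to 5.23% in the sugar comparisons. Beside these shares, 0 calls in lists of this size is close to the background and says nothing particular about either list.

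In the desaturase family 6 of 7 genes were tested, beside a background of 0.884% of all genes called between the genotypes and 5.23% with sucrose in atm1-1. AT3G02610, the neighbour of AT3G02620, was called between the genotypes beside AT3G02620, which was chosen on that contrast. With sucrose in atm1-1 AT3G02620 was higher while AT5G16240 was lower. AT5G16240 was at 9.4 ± 0.921 CPM with sucrose and 14.4 ± 0.199 CPM in mock within atm1-1 (SD, n = 3 each), or -0.62 on the log2 scale (SE 0.180, edgeR q = 0.0606), a call lost without any 1 of the 6 libraries (edgeR q of up to 0.276). All 7 Yippee genes were tested and 0 were called with sugar, which is close to the background of 0.554 to 5.23% of all genes. Between the genotypes 0 were called apart from AT3G55890, which was chosen on that contrast, and the family median was -0.10. In the phosphoglycerate mutase family 27 of 29 genes were tested, and between the genotypes 0 were called apart from AT3G05170, which was likewise chosen on that contrast. Sucrose gave 1 higher and 1 lower call in each genotype, where 5.23% of all genes were called in atm1-1 and 2.14% in Col-0. With sucrose AT2G17280 was higher in both genotypes, by 1.46 in atm1-1 (SE 0.423, edgeR q = 0.0592) and 1.44 in Col-0 (SE 0.415, edgeR q = 0.0928), and AT5G64460 was lower, with log2 fold changes of -0.58 in atm1-1 (SE 0.184, edgeR q = 0.0921) and -0.71 in Col-0 (SE 0.184, edgeR q = 0.0569). The calls of AT2G17280 in Col-0 and AT5G64460 in atm1-1 were lost without any 1 of the 6 libraries (edgeR q of 0.121 to 0.299 and 0.12 to 0.347). Those of AT2G17280 in atm1-1 and AT5G64460 in Col-0 were lost without some libraries, with edgeR q of up to 0.272 and 0.38, and AT2G17280 in atm1-1 was at 2.62 without atm1-1 mock replicate 2.

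The genes next to each locus were looked at next, since 4 of the 6 loci and ATM1 lie on chromosome 3. Chromosome 3 holds 26 of the genes called between the genotypes (14.9%) and 19.6% of the genes tested. AT3G02620, AT3G05170, AT3G55890 and QQS are 4 of the 26, but this contrast chose them, so nothing is read from that count. Of the 60 genes within 5 positions of the loci in TAIR10.1, 50 were in the table and 30 were tested. Of these 30, 2 were called between the genotypes, against 0.884% of all genes tested, both higher in atm1-1. Both lie on chromosome 3, as do most of the 30. The tested neighbours numbered 8 for AT3G05170, 8 for AT3G02620 and 3 for AT3G55890, against 3 for AT2G04885 and 8 for NF-YC4. Of the 2, AT3G02610 shares sequence with AT3G02620, which this contrast chose, so its call is not separate from that choice. QQS has no tested neighbour, so whether transcripts around it differ could not be examined.

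AT3G02610, directly before AT3G02620 (chr3:560182-561979) and of the same desaturase family, was higher in atm1-1 by 1.07 (SE 0.214, edgeR q = 0.0133). It was at 1.92, 2.90 and 3.80 CPM with glucose, 2.72, 3.93 and 3.28 CPM with sucrose and 3.57, 3.94 and 4.74 CPM in mock within atm1-1. In Col-0 it was at 2.13, 1.07 and 1.57 CPM with glucose, 2.18, 1.29 and 1.59 CPM with sucrose, and 1.79, 1.25 and 1.51 CPM in mock. The genotypes overlapped in the glucose group. Unlike AT3G02620 it had negative sugar estimates in atm1-1, -0.50 with glucose (SE 0.355, edgeR q = 0.559) and -0.30 with sucrose (SE 0.349, edgeR q = 0.771). These neighbours share sequence. Of the 1585 different 50-base stretches in the exons of AT3G02620, 142 (8.96%) also occur in AT3G02610, 54 of them within the last 500 exonic bases, where 3′ libraries read. Reads of 50 bases from those stretches could be counted for either gene, or for neither, so both genes' levels are uncertain to that extent. On the other side, AT3G02630, also a desaturase gene, differed by 0.31 (SE 0.0915, edgeR q = 0.154). DESeq2 called AT3G02630 (0.31, DESeq2 q = 0.0609), and with a library left out its edgeR q ran from 0.0777 to 0.316. For the other 5 loci 0 of the 50-base stretches occur elsewhere.

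AT3G55920, a cyclophilin-like gene 3 positions after AT3G55890, was higher in atm1-1 by 1.57 (SE 0.288, edgeR q = 0.00524). It was at 8.49, 1.23 and 8.91 CPM with glucose, 7.96, 3.73 and 6.28 CPM with sucrose and 8.94, 4.57 and 8.66 CPM in mock within atm1-1. In Col-0 it was at 1.96, 3.64 and 1.3 CPM with glucose, 2.11, 2.88 and 1.41 CPM with sucrose, and 1.41, 2.43 and 2.85 CPM in mock. Glucose replicate 2 of atm1-1, at 1.23 CPM, was below every Col-0 library, while the other 8 atm1-1 libraries were above every Col-0 library. AT3G55910, between these genes, differed by 1.14 (SE 0.358, edgeR q = 0.187). It was called with DESeq2 (1.16, DESeq2 q = 0.0555) and without the low-count filter (1.14, edgeR q = 0.0612). AT3G55890 itself overlaps AT3G55900, AT3G05170 overlaps AT3G05180 and NF-YC4 overlaps AT5G63480 in the annotation. Whether the counting used strand is not given in the sources used here, so reads in the shared bases cannot be assigned with certainty.

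**Figure D4:**
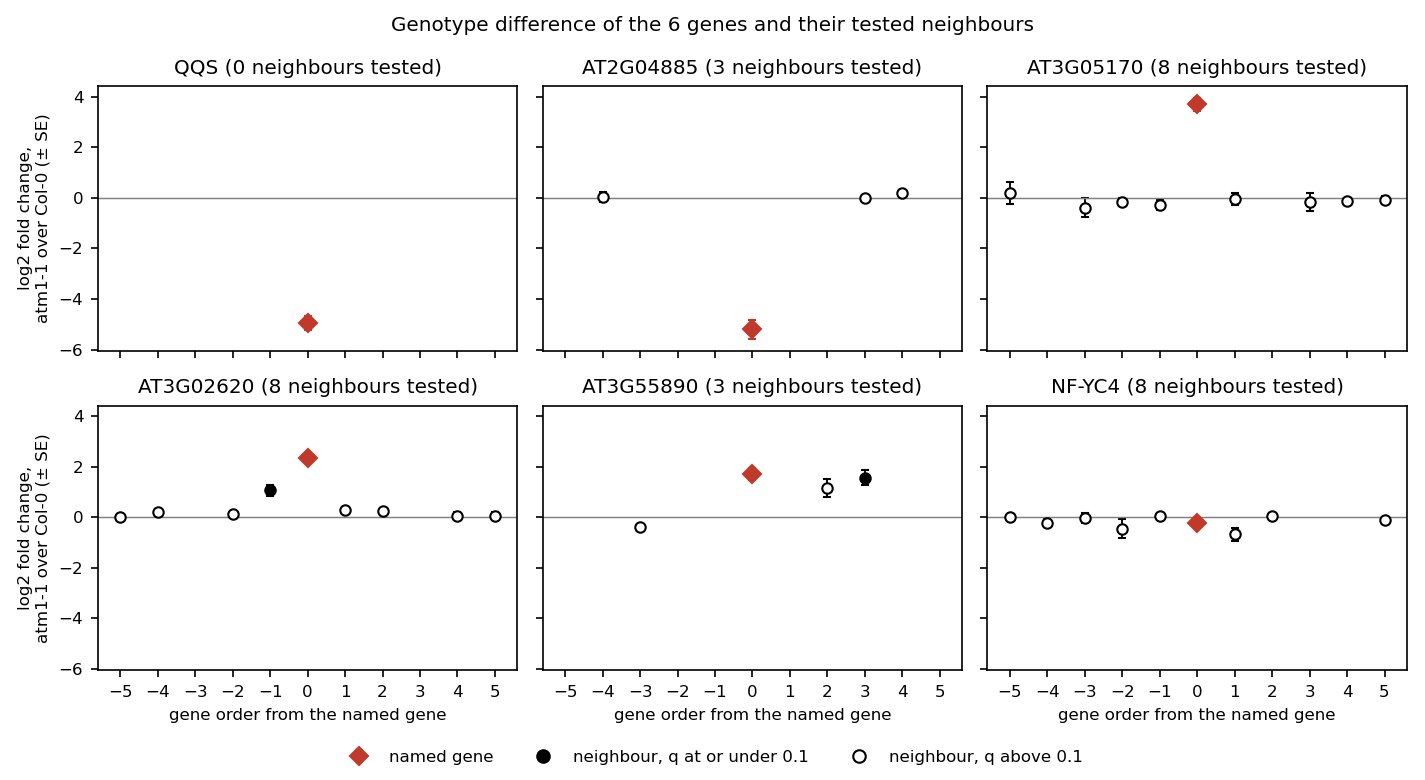
Log2 fold change of atm1-1 over Col-0, averaged over the 3 treatments (± SE), for each of the 6 genes (diamond at 0) and its tested neighbours by gene order up to 5 positions away. The filled neighbours, AT3G02610 beside AT3G02620 at 1.07 and AT3G55920 near AT3G55890 at 1.57, have q ≤ 0.1, and the other 28 neighbours have q above 0.1.

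The transcripts most like each locus were named by Pearson's r of log2 CPM over the 18 libraries, which share the genotype split, so that r mainly repeats it for the 5 chosen loci. QQS and AT2G04885 were each other's nearest transcript (r = 0.953), although they lie on chromosomes 3 and 2, and both were followed by AT2G40660, a tRNA-binding OB-fold protein gene (r = 0.872 and 0.895), and by AT5G15360, an uncharacterized gene (r = 0.871 and 0.846). As deviations from the 6 group means, QQS and AT2G04885 had r = 0.548, where the 9 atm1-1 libraries hold 0 to 12 counts of AT2G04885 and 2 to 40 of QQS, so that the value is poorly defined. AT3G05170 and AT3G55890 were among each other's 3 nearest (r = 0.874), together with AT4G26670 (0.878), of a mitochondrial import translocase family, and the non-coding AT2G06995 (0.877) for AT3G05170, and with GRP7 (0.855), a clock-regulated RNA-binding protein gene, and the expansin gene EXPA16 (0.847) for AT3G55890. AT3G02620 was nearest to DGR1 (0.887), AT3G05170 (0.858) and UNE11 (0.847). Within groups AT3G02620 and AT3G55890 went opposite ways (r = -0.751 over 18 deviations), unlike their common difference between the genotypes (r = 0.731 over the libraries). This was the most extreme within-group value of the pairs of the 6 loci, and nothing is read from it. In atm1-1 glucose replicate 2, the library that stood apart, AT3G02620 was the highest of its group at 23.8 CPM. AT3G55890 was the lowest of its group there, at 3.17 CPM. The Col-0 libraries hold only 10 to 54 counts of AT3G02620 and 5 to 39 of AT3G55890.

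NF-YC4 was nearest to AT5G08650 (r = 0.913), AT4G26860 (0.9) and RAB1C (0.892). These encode a GTP-binding protein, a predicted pyridoxal phosphate-dependent enzyme and a small GTPase of vesicle traffic, in that order. With QQS, NF-YC4 had r = 0.503 over the 18 libraries and r = 0.579 within groups. With AT2G04885 it had 0.407 over the libraries and -0.18 within groups. QQS and NF-YC4 were both lowest in atm1-1 glucose replicate 2, the library that stood apart, and the value over all libraries includes the genotype split QQS was chosen on. These correlations are descriptions over 18 libraries that also share depth and scaling, and nothing is read from them about either gene.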

How the data were processed

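Counts of QuantSeq 3′ reads (50 bases, single-end) per gene were used as deposited for the 18 libraries. Per the labels and methods, the authors aligned reads to TAIR10 and counted them per gene without normalization, and the submitters' processing notes name STAR, HTSeq and edgeR. The annotation release and the use of strand in counting are not given in the sources used here, and the labels and the methods name different sequencers. A deposited table of scaled values was not used. PCR copies cannot be told from molecules, since molecular identifiers are not mentioned.

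Genes with few counts were removed (filterByExpr, 6 groups), and the rest were scaled by TMM and fitted with edgeR 4.0.16 (glmQLFit, 6 groups, R 4.3.3) in 12 contrasts, at q ≤ 0.1. The edgeR fit stands in for PoissonSeq, the study's tool, which was not run. Alternatives were RLE, library size alone, no low-count filter, at least 10 counts in every library, DESeq2 1.42.0, limma 3.58.1 with voom, the compared groups alone, q ≤ 0.05, a replicate block, and each library left out. The statistics were tested on simulated data. In log2 CPM for correlations the prior count was 2, and an SE is the log2 fold change over the square root of F. Replicates are described as biological.

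The members and lists were chosen with earlier results of these data known. Genes were named by a rule: the 6 loci, ATM1, the 3 tested genes most correlated with each locus, called genes among the 5 on either side, AT3G02610 and AT3G02630, and up to 3 called genes with the smallest q per list. AT3G55910 and the overlapping genes were added after their values were seen. Sequences and gene order came from RefSeq TAIR10.1, which matched 32547 of the 32832 loci.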

Additional observations from a re-analysis of the deposited data

How the results depend on the processing

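The glucose call of AT3G02620 in atm1-1 held under every alternative run (1.38 to 1.49 on the log2 scale, 1.06 to 1.66 with a library left out), and no other member was called in any sugar comparison under any of them. The number of members called with sucrose in atm1-1, 1, became 0 at q ≤ 0.05, 0 with the replicate number as a block (AT3G02620 0.92, edgeR q = 0.131) and 0 to 0 without any of the 6 libraries. Same-numbered libraries did not deviate together (correlations of -0.148 to 0.275 over 15 pairs of groups, 0 pairs with every value over 0.1), so the block pairs only numbers. It moved 5 of 105 results, the other 4 being values of AT3G02620, NF-YB2, AT5G64460 and AT2G17280 with sucrose that lost their call.

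The genes called between the genotypes numbered 174 averaged over the treatments, against 393 with DESeq2, 545 without the low-count filter and 81 at q ≤ 0.05 (88 to 623 with a library left out, highest without atm1-1 glucose replicate 1). In mock they numbered 31, against 84 with DESeq2, 107 without the filter, 19 with at least 10 counts in every library, 98 with only the groups compared and 16 at q ≤ 0.05 (12 to 20). With glucose they numbered 10, against 39, 100, 4 and 5 under DESeq2, no filter, the 10-count filter and only the groups compared (5 to 207, highest without atm1-1 glucose replicate 1). With sucrose they numbered 9, against 25, 97, 1, 5 and 5 under DESeq2, no filter, the 10-count filter, library size alone and q ≤ 0.05 (4 to 7). The cause of these moves was not tested. Called genes with glucose in atm1-1 numbered 171 to 1073 and 303 to 2079 with a library left out, with sucrose 598 to 1828 and 369 to 764, in Col-0 with glucose 78 to 245 and 51 to 95, and with sucrose 212 to 921 and 104 to 715. Between the sugars they reached 48 in atm1-1 and 125 in Col-0, and in the interactions 14 for glucose and 21 for sucrose, all without the low-count filter. Library size alone moved the median of all genes with sucrose to 0.14 in atm1-1 and 0.15 in Col-0, and the called genes to 888 higher and 181 lower in atm1-1, against 560 and 470, and to 474 higher and 73 lower in Col-0, against 244 and 177.

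Uncalled values changed sign in some fits. With voom, AT2G04885 gave 0.23 for the glucose interaction, -0.73 for sucrose against glucose in atm1-1 and -0.86 for the sucrose interaction, and AT3G02620 gave -0.0065 with glucose in Col-0. With library size alone AT2G04885 gave 0.0134 with sucrose in atm1-1 and NF-YC4 0.0534 for sucrose against glucose in atm1-1. The glucose interaction of QQS was 0.0722 by DESeq2 and 0.0072 by voom. With a library left out, QQS in atm1-1 ran from -0.45 to 1.60 with glucose, -0.11 to 1.80 with sucrose and -0.32 to 0.88 for sucrose against glucose, with a glucose interaction of -0.69 to 1.37. AT2G04885 ran from -4.96 to 0.43 with sucrose in atm1-1, -3.99 to 1.41 for sucrose against glucose in atm1-1, -0.51 to 0.0358 with sucrose in Col-0 and -4.74 to 0.65 for the sucrose interaction. The values of -4.96, -3.99 and -4.74 came without atm1-1 sucrose replicate 1, the library that holds all its sucrose counts in atm1-1. In Col-0 AT3G02620 ran from -0.39 to 0.33 with glucose and -0.0474 to 0.65 for sucrose against glucose, and AT3G05170 from -1.28 to 0.10 with glucose, -0.47 to 0.25 with sucrose and -0.25 to 1.13 for sucrose against glucose, and -0.0748 to 0.38 for the last in atm1-1. AT3G55890 ran from -0.50 to 0.23 for sucrose against glucose in Col-0 and -0.89 to 0.045 for the sucrose interaction. NF-YC4 ran from -0.29 to 0.0301 between the genotypes with sucrose, -0.11 to 0.23 for the glucose interaction, and for sucrose against glucose -0.20 to 0.12 in atm1-1 and -0.31 to 0.0177 in Col-0.

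At least 10 counts in every library left AT3G02620 and NF-YC4 as the members tested, and for the average over the treatments a fit of only the groups compared is the fit used throughout. Counts of 0 to 40 per atm1-1 library limit QQS and AT2G04885 there, and 3 to 54 per Col-0 library limit the other 3 chosen loci.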
